A study of Mus musculus with 21 samples.

Results

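The 10 genes described here are Nanog, Klf2, Klf4, Klf5, Esrrb, Tfcp2l1, Tbx3, Zfp42, Prdm14 and Nr0b1, transcription factors of the naive pluripotent state of mouse embryonic stem cells. They were taken by gene symbol and are 10 of the 22512 genes in the deposited table. All 10 passed the filter on low counts in both experiments. Total RNA was sequenced in 2 experiments with 7 groups of 3 libraries each, 21 libraries in all. All groups derived from 1 line of mouse embryonic stem cells (129S6/SvEvTac) with a GFP reporter that holds sites for TRIM71 and with stably expressed FLAG-tagged Cas9 and blasticidin resistance, and all were grown in serum with LIF on gelatin. In Experiment 1, W was the parental line, Trim71KO was the line labelled Trim71-/- and Ago2KO the line labelled Ago2-/-. In Experiment 2, T6B_WT and T6B_MUT were the parental line transfected with a pCIP plasmid for an mCherry fusion of the T6B peptide or of its mutant. Trim71KO_empty and Ago2KO_empty were the edited lines transfected with an empty plasmid. No unedited group with an empty plasmid was analysed here, so T6B_MUT served as the control of Experiment 2, and for the edited lines genotype and plasmid differed together. Whether an edited line is 1 clone is not given in the sources used here.

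Mouse embryonic stem cells in the naive state resemble the epiblast of the blastocyst before implantation, and a network of transcription factors holds them there alongside Oct4 (Pou5f1) and Sox2. LIF feeds this network through its receptor and the kinase-activated factor STAT3, which induces Klf4 and Tfcp2l1, while Tbx3 responds to signalling through PI3K and Esrrb to relief from repression by Tcf7l1. TRIM71 binds hairpins in mRNAs and represses them, AGO2 holds microRNAs and leads them to mRNAs, and T6B is a fragment of TNRC6B that occupies Argonaute and so blocks silencing by microRNAs.

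The edited genes were examined first. Trim71 mRNA was at 617, 618 and 633 CPM (read counts scaled to library size) in W and 419, 424 and 468 in Trim71KO, and at 477, 488 and 498 in T6B_MUT and 398, 402 and 389 in Trim71KO_empty, so it was lower but still abundant in the edited lines, and reads at the edited site were not examined. Ago2 was at 157, 138 and 143 CPM in W and 44.4, 43.1 and 40.6 in Ago2KO. The libraries labelled Ago2KO_empty had 85.3, 161 and 45.1 CPM of Ago2, against 112, 142 and 110.4 in T6B_MUT, which goes against the label of replicate 2, and every direction drawn from the libraries labelled Ago2KO_empty carries that limit. The deepest library of Experiment 1 had 50.8 M counts and the shallowest 29.6 M, and those of Experiment 2 had 57.9 M and 33.9 M. The embryonic stem cell markers Pou5f1, Sox2, Sall4, Lin28a, Utf1 and L1td1 summed to 1996 to 3528 CPM per library. The 4 trophoblast markers in the table (Cdx2, Hand1, Gata3 and Krt7, while Elf5 and Tpbpa were not analysed here) stayed under 1 CPM each, as did T, Mixl1, Gsc and Evx1 of the primitive streak list.

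The 3′ UTRs of the members were searched for the sites of microRNA families known in embryonic stem cells, because AGO2 and T6B act through microRNAs. The mature sequences below are from RefSeq (GRCm38.p6), with the seed (bases 2 to 8) in capitals, and cover the families whose site was found in a member. The first 4 share 1 seed, the next pair another and the pair after that one more.
mmu-miR-294-3p (chr7:3220691-3220712, plus strand): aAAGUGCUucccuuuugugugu
mmu-miR-295-3p (chr7:3220815-3220837, plus strand): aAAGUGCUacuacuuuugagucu
mmu-miR-302b-3p (chr3:127545275-127545297, plus strand): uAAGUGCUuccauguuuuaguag
mmu-miR-302d-3p (chr3:127545665-127545687, plus strand): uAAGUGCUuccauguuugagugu
mmu-miR-17-5p (chr14:115043684-115043706, plus strand): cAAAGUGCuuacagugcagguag
mmu-miR-20a-5p (chr14:115044183-115044205, plus strand): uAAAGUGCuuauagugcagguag
mmu-miR-92a-3p (chr14:115044476-115044496, plus strand): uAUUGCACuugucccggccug
mmu-miR-25-3p (chr5:138165332-138165353, minus strand): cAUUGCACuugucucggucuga
mmu-let-7a-5p (chr13:48538239-48538260, minus strand): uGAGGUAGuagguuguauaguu
mmu-miR-470-5p (chrX:66813995-66814017, minus strand): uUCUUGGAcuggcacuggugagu

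Windows of 25 bases around each 7-base site in the members follow, read 5′ to 3′ on the gene's strand from the GENCODE M21 transcripts (GRCm38), with the bases that pair with the seed in capitals.
Klf2, site of miR-92a and miR-25 (chr8:72321124-72321148, plus strand): ttcaaaatgGTGCAATaattgactt
Klf4, site of miR-92a and miR-25 (chr4:55527359-55527383, minus strand): gtttcagatGTGCAATaatttgtac
Tfcp2l1, site of miR-92a and miR-25 (chr1:118683721-118683745, plus strand): aagtagaagGTGCAATcagaagtct
Tfcp2l1, site of the miR-290 and miR-302 families (chr1:118683196-118683220, plus strand): cgatggccgAGCACTTcccaactgc
Tbx3, site of miR-17 and miR-20a (chr5:119683152-119683176, plus strand): tctgccagtGCACTTTgttagatgt
Esrrb, let-7 site (chr12:86519673-86519697, plus strand): ttcctgcccCTACCTCagccagccg
Klf5, miR-470 site (chr14:99314822-99314846, plus strand): ttgtaaggcTCCAAGAtgtttatac

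Klf2, Klf4 and Tfcp2l1 thus carried the site of miR-92a and miR-25, which was present in 6.557% of the 3′ UTRs of 14809 tested genes. The 3′ UTRs of Klf2 and Klf4 had 737 and 982 bases, against a median of 934 among the tested genes. The shares given here take no account of length. The site of the miR-290 and miR-302 families was in the 3′ UTR of Tfcp2l1, at 7734 bases the longest among the members, and in 14.883% of the 14809. The shares for the other sites were 12.661% (GCACTTT, miR-17 and miR-20a), 9.062% (CTACCTC, let-7) and 10.386% (TCCAAGA, miR-470). Nanog, Zfp42, Prdm14 and Nr0b1 held none of these 5 sites, nor those of miR-134 (CAGTCAC, 9.933%) and miR-296 (GGGGCCC, 7.414%). A match here is a description of the letters and not evidence of binding.

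RefSeq promoter windows of 300 bases, from 250 before to 50 after a start site, were at hand for 7 of the 10 members, all but Klf5, Tbx3 and Prdm14. The core of the octamer motif bound by Oct4 (ATGCAAA, either strand) was in those of Nanog and Zfp42, and in 4.627% of 32851 promoters. These windows are shown with the motif, which lies on the opposite strand, in capitals.
Nanog promoter (chr6:122707239-122707538, plus strand): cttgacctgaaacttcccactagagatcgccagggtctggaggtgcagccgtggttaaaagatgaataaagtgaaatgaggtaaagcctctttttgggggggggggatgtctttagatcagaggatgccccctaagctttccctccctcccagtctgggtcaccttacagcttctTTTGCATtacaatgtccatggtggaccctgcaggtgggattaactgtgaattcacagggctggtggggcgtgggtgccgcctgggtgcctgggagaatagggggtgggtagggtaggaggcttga
Zfp42 promoter (chr8:43306960-43307259, minus strand): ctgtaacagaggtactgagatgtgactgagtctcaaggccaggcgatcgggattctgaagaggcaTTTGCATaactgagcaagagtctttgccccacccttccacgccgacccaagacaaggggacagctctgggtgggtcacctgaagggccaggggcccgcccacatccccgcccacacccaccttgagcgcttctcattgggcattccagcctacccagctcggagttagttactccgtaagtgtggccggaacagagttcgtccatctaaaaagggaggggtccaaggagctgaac

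The octamer core began 75 bases before the start site of the Nanog window shown, 151 before that of a second Nanog entry, and 185 before the start site of Zfp42. Other promoters differed in make-up. Tfcp2l1 and Nr0b1 held a TATA box (TATAAA; 13.616% of promoters), Klf2, Klf4 and Zfp42 held GC boxes (GGGCGG; 35.658%), and 1 of the 2 Esrrb windows held the motif bound by STAT dimers (TTCNNNGAA; 8.298%). The motif bound by Esrrb itself (AAGGTCA; 4.718%) was in none of the 7 members' windows.

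Levels were compared between members as RPKM, which divides by gene length. Zfp42 (Rex1, a zinc-finger gene long used as a marker of the naive state) was the most abundant in all 7 groups, at 336 ± 5.72 RPKM in W (SD, n = 3). Nanog, the homeodomain factor, was next in all 7, at 153 ± 2.40 in W, and Prdm14, a PR-domain factor that represses DNA methyltransferase genes, was last in all 7, at 11.8 ± 0.417 in W. In W the order between them was Klf2 (89.1 ± 14.9), Nr0b1 (78.1 ± 9.58), Esrrb (67.9 ± 4.55), Klf4 (65.1 ± 5.37), Tfcp2l1 (55.3 ± 2.31), Klf5 (31.1 ± 0.432) and Tbx3 (23.4 ± 1.17). The libraries of neighbours overlapped from Klf2 down to Klf4, and not below. This middle order differed between groups. Klf2 was in the third place in W and in Ago2KO (102 ± 14.0) but in the seventh in Trim71KO (69.8 ± 19.2), T6B_MUT (48.6 ± 2.23) and Trim71KO_empty (57.1 ± 5.22). Tfcp2l1, in the seventh place in W, was in the third in T6B_WT (95.6 ± 4.36), Trim71KO_empty (110.4 ± 7.41) and the libraries labelled Ago2KO_empty (107 ± 29.3). In Trim71KO the libraries of neighbours overlapped from Klf4 down to Klf2. Those of Tfcp2l1 overlapped the next gene, Esrrb, in Trim71KO_empty and in the libraries labelled Ago2KO_empty, but not in T6B_WT. All levels below are CPM with library scaling by TMM, and all differences are log2 fold changes within an experiment.

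**Figure D1:**
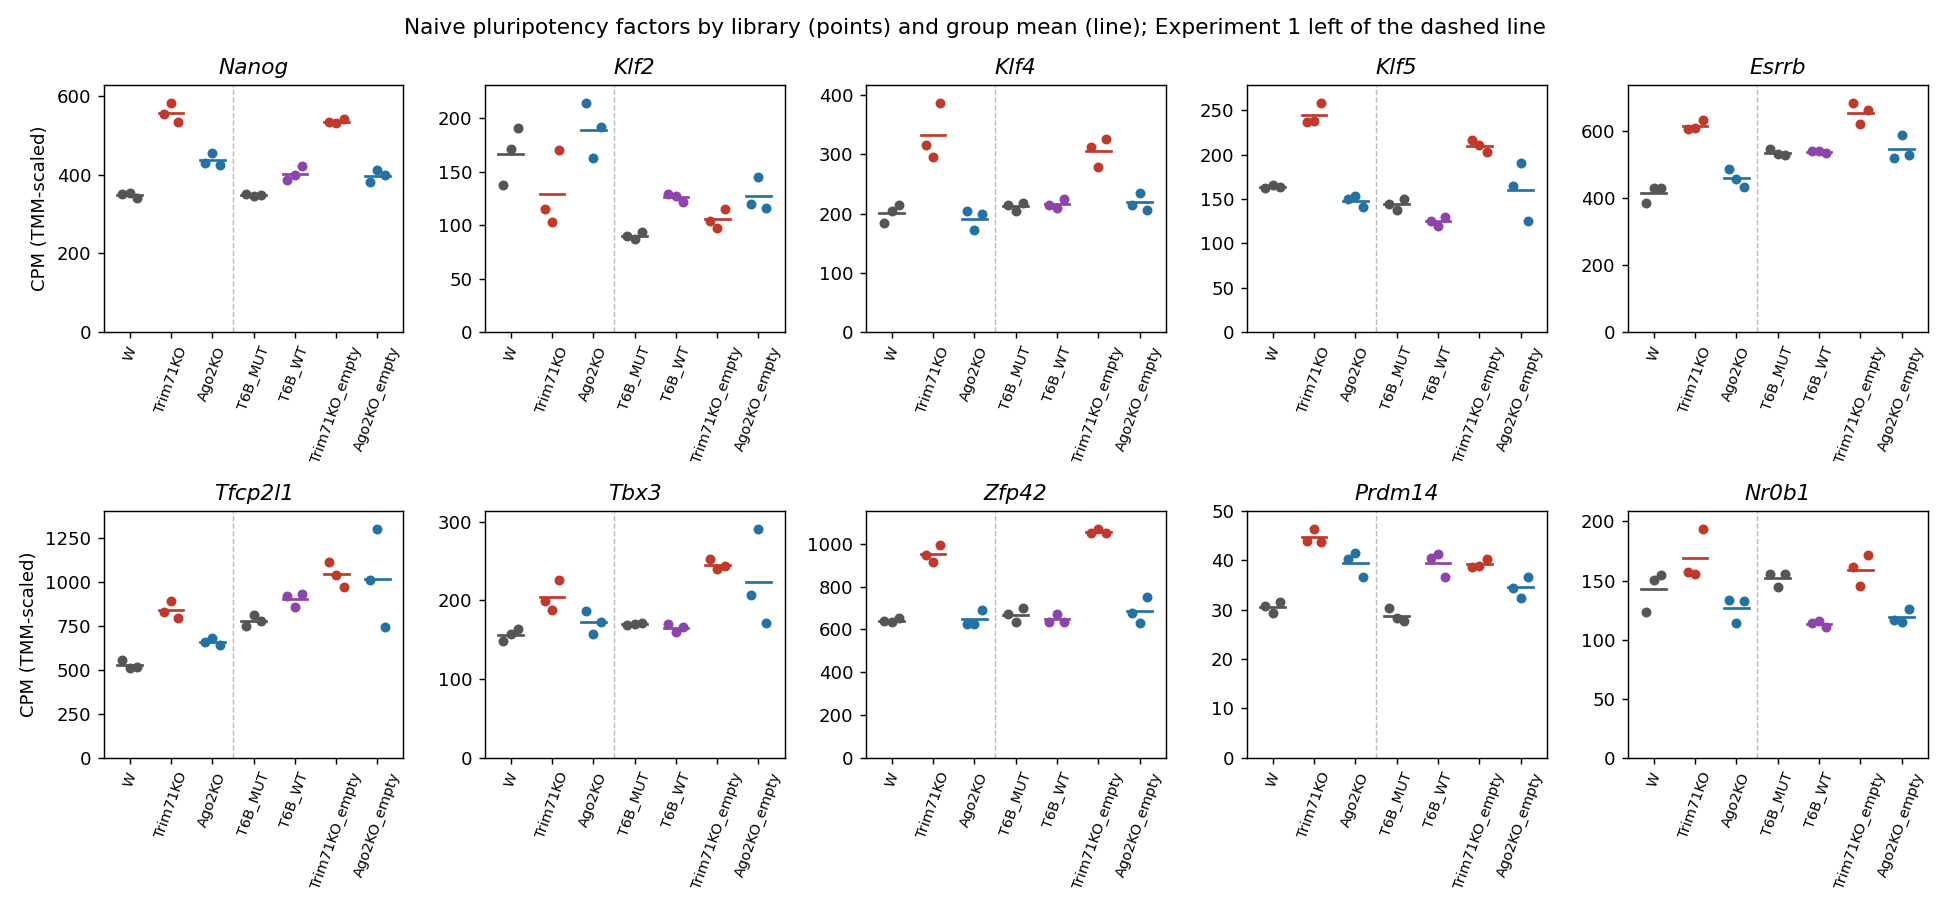
Level of each of the 10 factors in CPM (y axis, from 0) by group (x axis); each point is 1 library in the order of replicates and each line the mean of 3, with Experiment 1 left of the dashed line. Trim71KO and Trim71KO_empty (red) lie above their controls W and T6B_MUT (grey) for most factors, while Klf2 overlaps W in Experiment 1 and Nr0b1 overlaps T6B_MUT in Experiment 2, and the libraries labelled Ago2KO_empty spread widely for Klf5, Tfcp2l1 and Tbx3.

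Cells of the line labelled Trim71-/- had more mRNA of most of these factors than the parental line. In Trim71KO against W, 8 of the 10 were called higher and 0 lower at an adjusted p under 0.05, against 16.9% higher and 15.6% lower among all 21210 genes tested. The members' median difference was 0.58, and that of all genes −0.00074. In Experiment 2, Trim71KO_empty against T6B_MUT again had 8 called higher and 0 lower, against 14.4% and 13.4% of 21505 genes, with a median of 0.49 (all genes, 0.0025). The 2 comparisons share no library, but both used the line labelled Trim71-/-, so libraries are replicates of that line and not of the edit. In bulk RNA, fewer cells of a type and less RNA per cell cannot be told apart, and the same holds for more of either.

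Nanog (ENSMUSG00000012396, chr6:122707489-122714633, plus strand) was at 350.2, 353 and 341 CPM in the W libraries and 553, 582 and 534 in Trim71KO. It was at 350.1, 346 and 349 CPM in T6B_MUT and 534, 530.3 and 541 in Trim71KO_empty. Each edited library thus lay above each control library, and the controls of both experiments stood at nearly the same level. The difference was 0.69 (SE 0.05, adjusted p 5.78e-08, edgeR quasi-likelihood), or 1.61-fold, in Experiment 1 and 0.62 (SE 0.06, adjusted p 4.72e-07), or 1.54-fold, in Experiment 2. Prdm14 (ENSMUSG00000042414, chr1:13113457-13127163, minus strand) was at 30.7, 29.4 and 31.5 CPM in W and 43.9, 46.3 and 43.8 in Trim71KO. In Experiment 2 it was at 30.4, 28.2 and 27.6 CPM in T6B_MUT and 38.7, 38.7 and 40.2 in Trim71KO_empty. The groups did not overlap in either experiment, and Prdm14 rose by 0.56 (SE 0.06, adjusted p 6.79e-06, edgeR quasi-likelihood) and 0.45 (SE 0.07, adjusted p 6.84e-05).

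The Krüppel-like factors did not move together. Klf4 (ENSMUSG00000003032, chr4:55527143-55532466, minus strand), a target of STAT3, was at 184, 204 and 215 CPM in W and 316, 296 and 386 in Trim71KO. It was at 214, 204 and 219 CPM in T6B_MUT and 312, 279 and 325 in Trim71KO_empty. Its rise of 0.74 (SE 0.10, adjusted p 0.000309, edgeR quasi-likelihood), 1.67-fold, was the largest among the members in Trim71KO against W, and it was 0.53 (SE 0.07, adjusted p 2.06e-05) in Experiment 2. Klf5 (ENSMUSG00000005148, chr14:99298691-99315036, plus strand), which overlaps Klf4 and Klf2 in its targets, was at 162, 166 and 163 CPM in W and 237, 238 and 258 in Trim71KO. It was at 144, 137 and 150.4 CPM in T6B_MUT and 217, 211 and 203 in Trim71KO_empty. Both contrasts were free of overlap, at 0.59 (SE 0.05, adjusted p 6.13e-07, edgeR quasi-likelihood) and 0.55 (SE 0.12, adjusted p 0.00275).

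Klf2 (ENSMUSG00000055148, chr8:72319033-72321656, plus strand) was the member with opposite signs in the 2 experiments. It was at 137, 171 and 191 CPM in W and 115, 103 and 170.3 in Trim71KO, where replicate 3 lay among the W libraries. The groups differed by −0.35 (SE 0.22) with no call (edgeR quasi-likelihood, adjusted p 0.292), and without Trim71KO replicate 3 it was −0.60 (adjusted p 0.0359). In Experiment 2 Klf2 was at 89.4, 86.7 and 94.0 CPM in T6B_MUT and 104, 97.0 and 115 in Trim71KO_empty, without overlap. That difference, 0.23 (SE 0.08), was called (adjusted p 0.0436, edgeR quasi-likelihood), but the call was lost without any 1 of 7 libraries, among them all 3 of T6B_MUT, and with a replicate block (adjusted p 0.0630). It was 0.16 without Trim71KO_empty replicate 3 (adjusted p 0.207) and 0.20 without T6B_MUT replicate 2 (adjusted p 0.135). The experiments differed by 0.59 (SE 0.23) with no call (edgeR quasi-likelihood, adjusted p 0.135), and with a call by DESeq2 (0.60, adjusted p 0.0302) and without Trim71KO replicate 3 (0.84, adjusted p 0.00463).

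Klf2 and Zfp42 both lie on chromosome 8, whose genes were on balance higher in the Trim71-edited cells. The median difference of its 1060 genes was 0.19 in Trim71KO against W, with 71.3% positive, and that of 1053 genes was 0.09 in Trim71KO_empty against T6B_MUT, with 61.4% positive. In Ago2KO against W the median was 0.0048, with 51.0% positive. Medians of the members' other chromosomes ran from −0.03 (chromosome 5) to 0.07 (chromosome 12, 58.9% positive) in Trim71KO against W. In Trim71KO_empty against T6B_MUT they ran from −0.03 (chromosome 4) to 0.05 (chromosome 12). Zfp42 (ENSMUSG00000051176, chr8:43295063-43306980, minus strand) was at 637, 632 and 651 CPM in W and 945, 917 and 993 in Trim71KO. It was at 673, 634 and 698 CPM in T6B_MUT and 1050.5, 1069 and 1049 in Trim71KO_empty. The edited libraries were close to each other and far above the controls. Zfp42 rose by 0.58 (SE 0.05, adjusted p 4.73e-07, edgeR quasi-likelihood) and 0.67 (SE 0.07, adjusted p 7.53e-07), and these values less the median of the chromosome were 0.39 and 0.58. For Klf2 the same subtraction gave −0.55 and 0.15. The part of the chromosome's shift in either result was not tested.

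Esrrb (ENSMUSG00000021255, chr12:86361117-86521628, plus strand) is an orphan nuclear receptor that can stand in for Nanog in self-renewal. It was at 385, 430.2 and 431 CPM in W and 608, 609.9 and 633 in Trim71KO, a rise of 0.58 (SE 0.05, adjusted p 1.75e-06, edgeR quasi-likelihood). In Experiment 2 it was at 546, 531 and 529 CPM in T6B_MUT and 684, 621 and 663 in Trim71KO_empty, a rise of 0.30 (SE 0.07, adjusted p 0.00217). The groups did not overlap in either experiment, and the control level of Experiment 2 lay above that of Experiment 1. Nr0b1 (Dax1, ENSMUSG00000025056, chrX:86191764-86195947, plus strand), an atypical nuclear receptor without the usual DNA-binding domain that acts as a corepressor, was at 123, 150.4 and 155 CPM in W and 157, 156 and 194 in Trim71KO. In Experiment 2 it was at 156, 145 and 156 CPM in T6B_MUT and 161, 145 and 171 in Trim71KO_empty. The first pair of groups just missed each other and the second overlapped. Nr0b1 was not called in either, at 0.25 (SE 0.11, adjusted p 0.105, edgeR quasi-likelihood) and 0.07 (SE 0.07, adjusted p 0.451), and the former was called by DESeq2 (adjusted p 0.0489) and with a replicate block (adjusted p 0.0365).

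Tfcp2l1 and Tbx3 are overlapped by other genes in the annotation, and whether counting used strand is not given in the sources used here, so some of their counts may come from those genes. Tfcp2l1 (ENSMUSG00000026380, chr1:118627945-118685168, plus strand), which acts downstream of STAT3, was at 555, 513 and 515 CPM in W and 829, 889.6 and 796 in Trim71KO. It was at 748, 811 and 778 CPM in T6B_MUT and 1116, 1038 and 973 in Trim71KO_empty. No edited library overlapped a control library. The rise of 0.68 (SE 0.05, adjusted p 1.65e-07, edgeR quasi-likelihood) was called in Experiment 1, and the 0.43 (SE 0.16) of Experiment 2 was not (edgeR quasi-likelihood, adjusted p 0.0816). The spread of that fit is shared with the libraries labelled Ago2KO_empty, which had 1009.5, 1301 and 741 CPM, and with the 2 groups compared alone the adjusted p was 5.53e-05 at the same 0.43. It was also called without replicate 2 (adjusted p 0.00132) or replicate 3 (adjusted p 0.000356) of the libraries labelled Ago2KO_empty, and by DESeq2 (adjusted p 0.0105).

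Tbx3 (ENSMUSG00000018604, chr5:119670669-119684724, plus strand), a T-box factor, was at 149, 158 and 163 CPM in W and 199, 188 and 226 in Trim71KO. It was at 168, 171 and 172 CPM in T6B_MUT and 253, 240.4 and 244 in Trim71KO_empty. The edited libraries were the higher ones throughout. Tbx3 rose by 0.39 (SE 0.07, adjusted p 0.000746, edgeR quasi-likelihood), the smallest called rise in Trim71KO against W, and by 0.54 (SE 0.15, adjusted p 0.0239) in Experiment 2. The latter call was lost without T6B_MUT replicate 1 (adjusted p 0.0533), T6B_MUT replicate 3 (0.0542) or Trim71KO_empty replicate 1 (0.0748). Tbx3 is overlapped by Tbx3os1 on the opposite strand, and Tfcp2l1 by Gm22094 and Gm28882 on the opposite strand and Gm23497 on its own.

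**Figure D2:**
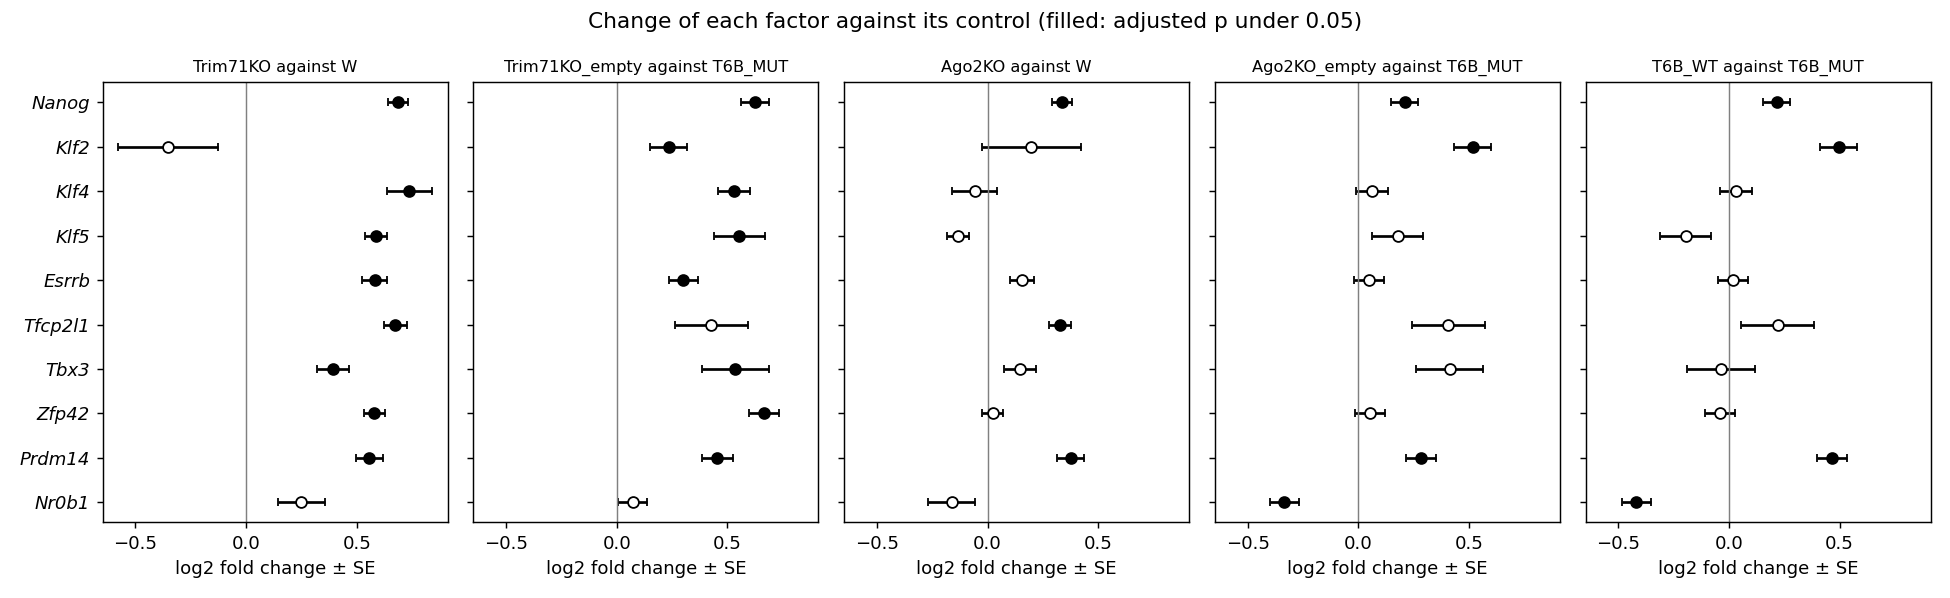
Log2 fold change (x axis, bars are ± 1 SE from edgeR) of each factor (rows) in 5 comparisons with a control; filled points have an adjusted p under 0.05. In the 2 panels of the Trim71-edited line 8 of 10 points are filled and right of 0, while in the panels for Ago2KO, the libraries labelled Ago2KO_empty and T6B_WT 3 or 4 are filled and Nanog and Prdm14 are filled on the right in each.

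Of the 6 embryonic stem cell markers, which include Pou5f1 and Sox2, the factors common to naive and later pluripotent states, 0 were called higher and 3 lower in Trim71KO, and 1 higher and 4 lower in Trim71KO_empty. The RNA-binding protein gene Lin28a fell most, by 0.58 (SE 0.04, adjusted p 2.25e-07, edgeR quasi-likelihood) and 0.87 (SE 0.08, adjusted p 3.47e-07), and Sall4 and L1td1 were also called lower in both. Pou5f1 stood at 1188, 1269.9 and 1353 CPM in W and 1205, 1168 and 1351 in Trim71KO, a difference of −0.02 (SE 0.06, adjusted p 0.792, edgeR quasi-likelihood), and of −0.03 (SE 0.08, adjusted p 0.843) in Experiment 2. Sox2 differed by 0.10 (SE 0.09, adjusted p 0.442, edgeR quasi-likelihood) in Experiment 1 and rose by 0.24 (SE 0.07, adjusted p 0.0167) in Experiment 2. Markers of other states moved beside the members. The summed level of 9 formative or primed epiblast markers, the state that cells pass into on leaving naive pluripotency, was 554 to 582 CPM in W and 313 to 332 in Trim71KO, with 6 called lower and 1 higher, and 482 to 507 in Ago2KO, with 4 called lower and 1 higher. In Experiment 2 it was 233 to 241 in T6B_MUT and 152 to 176 in Trim71KO_empty, with 4 of 8 tested lower and 0 higher. In the libraries labelled Ago2KO_empty it was 220 to 259, overlapping T6B_MUT, with 3 of the 8 called higher and 1 lower. Fgf5 of that list was under 1 CPM in every library. Dnmt3a and Dnmt3b, at means of 270 and 237 CPM, weighed most in the W sum. The median difference of the list was −0.53 in Trim71KO, −0.24 in Ago2KO and −0.85 in Trim71KO_empty. In the libraries labelled Ago2KO_empty it was −0.0062. The 10 primitive endoderm markers summed to 361 to 381 CPM in W, 169 to 178 in Trim71KO and 189 to 202 in Ago2KO. In Trim71KO and Ago2KO, 9 and 10 of them were called lower, against 15.6% and 7.78% of all genes tested. Those markers summed to 346 to 361 CPM in T6B_MUT and 345 to 394 in Trim71KO_empty, where 7 were called lower and 2 higher. In the libraries labelled Ago2KO_empty they summed to 324 to 351 CPM, with 4 called lower and 0 higher. Lama1 and Col4a1, at means of 157 and 162 CPM, weighed most in the W sum of this list. The median difference of the list was −2.55 in Trim71KO, −2.12 in Ago2KO and −1.29 in Trim71KO_empty. In the libraries labelled Ago2KO_empty it was −0.37. The part of these markers in the members' differences was not tested.

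**Figure D3:**
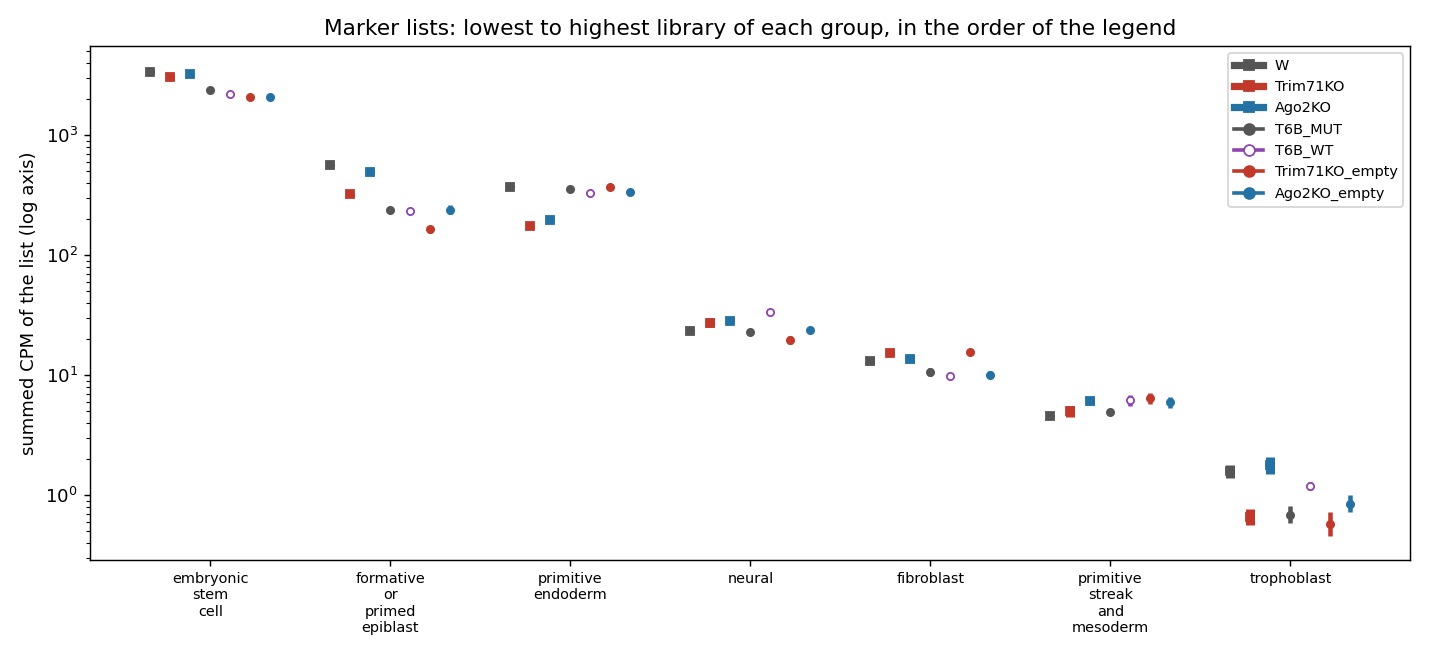
Summed CPM (y axis, log scale) of each marker list (x axis) by group; the bar spans the lowest to the highest of the 3 libraries, the symbol marks the geometric midpoint of these, and squares are Experiment 1 and circles Experiment 2. The primitive endoderm sums of Trim71KO and Ago2KO lie below that of W, the formative sums of Trim71KO and Ago2KO lie below that of W and that of Trim71KO_empty below that of T6B_MUT, and the streak and trophoblast lists stay under 10 CPM.

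In the Ago2KO line fewer members were higher, and by less. In Ago2KO against W, 3 of the 10 were called higher and 0 lower, against 10.2% higher and 7.78% lower among all genes tested, with a median difference of 0.15 (all genes, −0.0029). The members called were Nanog, Tfcp2l1 and Prdm14. This comparison shares the W libraries with that of Trim71KO. Nanog was at 429.9, 456 and 424 CPM in Ago2KO, between W and Trim71KO without overlapping either, a rise of 0.34 (SE 0.05, adjusted p 0.000154, edgeR quasi-likelihood). Tfcp2l1, at 656, 679 and 641 CPM, lay between them likewise and rose by 0.33 (SE 0.05, adjusted p 0.000378, edgeR quasi-likelihood). Prdm14 rose by 0.38 (SE 0.06, adjusted p 0.000553, edgeR quasi-likelihood), to 40.2, 41.5 and 36.6 CPM, also between W and Trim71KO.

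Of the other 7 members, Esrrb at 489, 458 and 433 CPM lay just above W without a call (0.16, SE 0.05, adjusted p 0.0612, edgeR quasi-likelihood). It was called without Ago2KO replicate 3 (0.20, adjusted p 0.0341) and with genes over 1 CPM in at least 3 libraries (0.17, adjusted p 0.0464). Klf5 had its 3 libraries, at 149.7, 153 and 141 CPM, below all of W (−0.14, SE 0.05, adjusted p 0.0762, edgeR quasi-likelihood), and was called without Trim71KO replicate 3 (−0.14, adjusted p 0.0473). Klf2 (214, 163 and 192 CPM), Klf4 (204, 172 and 199), Tbx3 (187, 158 and 172), Zfp42 (623, 625 and 692) and Nr0b1 (133, 114 and 132) overlapped W, with differences of 0.20, −0.06, 0.15, 0.02 and −0.16. Of these 5, Klf2 was the least precise, with an SE of 0.22.

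T6B_WT against T6B_MUT compared cells with the Argonaute-binding peptide and with its mutant. Here 3 of 10 members were called higher (Nanog, Klf2 and Prdm14) and 1 lower (Nr0b1), against 9.29% higher and 6.69% lower among all genes tested, with a median of 0.03 (all genes, 0.0066). Klf2 was at 129, 128 and 122 CPM in T6B_WT, each above its T6B_MUT values, and rose by 0.50 (SE 0.08, adjusted p 0.000426, edgeR quasi-likelihood), 1.41-fold. Prdm14 was at 40.4, 41.2 and 36.7 CPM and rose by 0.47 (SE 0.07, adjusted p 0.000124, edgeR quasi-likelihood). Nr0b1 was at 114, 116 and 110.3 CPM, below all 3 T6B_MUT libraries, and fell by 0.42 (log2; SE 0.07, adjusted p 0.000224, edgeR quasi-likelihood). These 3 calls were kept with each library left out in turn. Nanog, at 387, 400.0 and 421 CPM, rose by 0.22 (SE 0.06, adjusted p 0.0204, edgeR quasi-likelihood). The Nanog call was lost without any 1 of the T6B_MUT libraries and without T6B_WT replicate 2 or 3, at values of 0.17 to 0.21 and adjusted p of 0.0684 to 0.126.

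Klf5 was at 125, 119.8 and 129 CPM in T6B_WT, below all of T6B_MUT, and Tfcp2l1 at 920.2, 856 and 934, above all of it. Neither was called (−0.20, SE 0.12, adjusted p 0.297 and 0.22, SE 0.16, adjusted p 0.440, edgeR quasi-likelihood). With the 2 groups compared alone both were, with adjusted p of 0.00724 and 0.00588. Klf4, Esrrb, Tbx3 and Zfp42 overlapped T6B_MUT, with differences of 0.03, 0.02, −0.04 and −0.04. Klf2, Klf4 and Tfcp2l1 carry the miR-92a and miR-25 site shown above, and Esrrb, Tbx3 and Klf5 carry sites of let-7, miR-17 and miR-470. Nr0b1, Nanog, Prdm14 and Zfp42 carry none of the sites searched. Among the members called here only Klf2 thus held a site, and the part of these sites in the differences was not tested. Pou5f1 fell by 0.24 in T6B_WT (log2, SE 0.08, adjusted p 0.0483, edgeR quasi-likelihood), while Sox2 rose by 0.21 (SE 0.07, adjusted p 0.0470).

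The libraries labelled Ago2KO_empty, against the same T6B_MUT libraries, had 3 members called higher (Nanog, Klf2 and Prdm14) and 1 lower (Nr0b1). Among all genes tested 16.4% were higher and 12.4% lower, and the members' median was 0.19 (all genes, 0.03). Klf2 was at 119.7, 145 and 116 CPM and rose by 0.52 (SE 0.08, adjusted p 0.000193, edgeR quasi-likelihood). Nr0b1 was at 117, 114 and 126 CPM and fell by 0.33 (log2; SE 0.07, adjusted p 0.00108, edgeR quasi-likelihood). Prdm14, at 34.5, 32.4 and 36.7 CPM, rose by 0.28 (SE 0.07, adjusted p 0.00522, edgeR quasi-likelihood), and Nanog, at 383, 413 and 398 CPM, by 0.21 (SE 0.06, adjusted p 0.0152). Groups did not overlap for these 4. The Prdm14 call was lost without T6B_MUT replicate 3 (0.23, adjusted p 0.0532). That of Nanog was lost without any 1 T6B_MUT library or without replicate 2 of the libraries labelled Ago2KO_empty (0.16 to 0.19, adjusted p 0.0736 to 0.0842).

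The 3 libraries labelled Ago2KO_empty stood apart from each other. Replicate 2, with 161 CPM of Ago2, had the highest level of the 3 for Nanog, Klf2, Klf4, Klf5, Esrrb, Tfcp2l1 and Tbx3 and the lowest for Zfp42, Prdm14 and Nr0b1. Tfcp2l1 ran from 741 CPM in replicate 3 to 1301 in replicate 2, Tbx3 from 172 to 291 and Klf5 from 126 to 190.5. None of these 3 was called against T6B_MUT (0.41, 0.41 and 0.18, adjusted p 0.0914, 0.0659 and 0.267, edgeR quasi-likelihood). Without replicate 3 all 3 were called higher, at 0.57, 0.55 and 0.31 (adjusted p 5.27e-05, 0.000227 and 0.00192), and the members called numbered 7, 6 of them higher. Without T6B_MUT replicate 3 the members called numbered 2. By DESeq2 Tfcp2l1 and Tbx3 were called with all libraries (adjusted p 0.0218 and 0.0135). Pou5f1 fell by 0.37 (log2, SE 0.08, adjusted p 0.00203, edgeR quasi-likelihood) and was lowest in replicate 2. Sox2 rose by 0.21 (SE 0.07, adjusted p 0.0325, edgeR quasi-likelihood), with libraries that overlapped T6B_MUT. The part of the uneven Ago2 level in these results was not tested.

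The edited lines were also compared with each other. In Trim71KO against Ago2KO, 9 of 10 members were called higher, all but Klf2, and 0 lower, against 17.1% of all genes higher and 17.1% lower. Klf4 differed most (0.80, SE 0.10, adjusted p 0.000156, edgeR quasi-likelihood), then Klf5 (0.72, SE 0.05) and Zfp42 (0.56, SE 0.05). Prdm14 differed least among those called (0.18, SE 0.06, adjusted p 0.0300, edgeR quasi-likelihood), and its call was lost without Ago2KO replicate 3 (0.13, adjusted p 0.141), Trim71KO replicate 1 (0.19, adjusted p 0.0630) or Trim71KO replicate 2 (0.15, adjusted p 0.123). That of Tbx3 (0.25, SE 0.07, adjusted p 0.0158) was lost without Ago2KO replicate 2 or 3 or Trim71KO replicate 3 (0.17 to 0.24, adjusted p 0.0530 to 0.0679). Klf2 lay lower, at −0.55 (SE 0.23, adjusted p 0.112, edgeR quasi-likelihood), and without Trim71KO replicate 3 was called at −0.80 (adjusted p 0.0127).

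In Trim71KO_empty against the libraries labelled Ago2KO_empty, 6 members were called higher (Zfp42, Klf4, Nanog, Nr0b1, Klf5 and Esrrb, at 0.61 to 0.25) and Klf2 was called lower (−0.28, SE 0.08, adjusted p 0.0142, edgeR quasi-likelihood). Among all genes tested 14.7% were higher and 16.9% lower. With the 2 groups compared alone, Klf2, Klf5 and Esrrb lost their calls (adjusted p 0.0644, 0.0966 and 0.0599) and 4 members were called. The Klf2 value was −0.16 without replicate 2 of the libraries labelled Ago2KO_empty (adjusted p 0.115), and its call was also lost without Trim71KO_empty replicate 1 (−0.25, adjusted p 0.0596) or 2 (−0.21, adjusted p 0.0843). That of Klf5 was lost without Trim71KO_empty replicate 1 (0.37, adjusted p 0.0519). Tfcp2l1 (0.02, SE 0.16) and Tbx3 (0.12, SE 0.15) were not called, and Tbx3 was without replicate 2 of the libraries labelled Ago2KO_empty (0.38, adjusted p 0.000518).

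Whether the edited line differed from its control alike in both experiments was tested across all 21 libraries. For Trim71 the members' differences changed by −0.28 to 0.59 between experiments, and 1 of 10 was called, Esrrb (−0.28, SE 0.09, adjusted p 0.0354, edgeR quasi-likelihood), against 10.1% of 22258 genes in either direction. That call was lost without any 1 of 13 of the 21 libraries, at −0.19 (adjusted p 0.186) without W replicate 1, and with a replicate block (adjusted p 0.0620). For Ago2 0 members were called, against 2.13% of genes, and by DESeq2 0 as well. Klf5 had an unadjusted p of 0.0258 there (0.30, SE 0.13, adjusted p 0.254, edgeR quasi-likelihood), and was called without replicate 3 of the libraries labelled Ago2KO_empty (0.45, adjusted p 0.00238). Of the 10 primitive endoderm markers, 8 were called for Trim71 and 8 for Ago2, all with positive differences. Their median differences were 1.38 and 1.32.

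The LIF and STAT3 pathway was followed as a list of 10 genes, from receptor subunits to targets of STAT3. The shares of all genes tested given above for each comparison are the background for the counts of this list. They are also that of the lists that follow and of the marker lists above. In Trim71KO 5 were called higher and 2 lower (median 0.20), and in Trim71KO_empty 4 and 2 (median 0.11). Stat3 rose by 0.35 (SE 0.05, adjusted p 7.88e-05, edgeR quasi-likelihood) and 0.34 (SE 0.06, adjusted p 0.000166). The kinase gene Pim1, a target of STAT3, fell by 0.86 (SE 0.07, adjusted p 3.95e-07, edgeR quasi-likelihood) and 1.04 (SE 0.09, adjusted p 6.72e-08), and Il6st, the shared receptor subunit gp130, by 0.34 (SE 0.05) and 0.30 (SE 0.07). Klf4, a member and also a target of STAT3, rose in both, as given above. Socs3 and Bcl3 of the list were not called in Trim71KO (0.09, adjusted p 0.499, and 0.0070, adjusted p 0.970, edgeR quasi-likelihood). In Ago2KO, T6B_WT and the libraries labelled Ago2KO_empty 4 were called higher in each, and 1, 2 and 1 lower. Il6st was among the higher genes there, by 0.53 (SE 0.05, adjusted p 2.62e-06, edgeR quasi-likelihood), 0.54 (SE 0.07, adjusted p 2.54e-05) and 0.70 (SE 0.07, adjusted p 7.52e-07). The receptor gene Lifr rose in Trim71KO (0.36), Ago2KO (0.42), T6B_WT (0.39) and the libraries labelled Ago2KO_empty (0.66), and Jak2 rose in the same 4 comparisons (0.29, 0.42, 0.59 and 0.40).

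Of 14 other genes of the naive state, 5 were called higher and 5 lower in Trim71KO (median −0.12) and 3 and 3 in Trim71KO_empty (median −0.14), where the 10 members had no call lower. Tet2, a dioxygenase that oxidises methylated cytosine, rose by 0.85 (SE 0.07, adjusted p 3.78e-07, edgeR quasi-likelihood) and 0.80 (SE 0.15, adjusted p 0.00192), and the nuclear receptor gene Nr5a2 by 0.73 (SE 0.05) and 0.73 (SE 0.06). Dppa2 fell by 0.56 (SE 0.05, adjusted p 1.55e-06, edgeR quasi-likelihood) and 0.58 (SE 0.08, adjusted p 2.92e-05), and Dppa5a fell by 0.63 in Trim71KO_empty. Dppa3, which fell by 1.87 in Trim71KO, was under 1 CPM in every library. In Ago2KO 5 were called higher and 1 lower, in T6B_WT 3 and 1, and in the libraries labelled Ago2KO_empty 3 and 4. Fbxo15 rose in these by 0.43 (SE 0.05, adjusted p 8.22e-05, edgeR quasi-likelihood), 0.56 (SE 0.08, adjusted p 5.01e-05) and 0.79 (SE 0.08, adjusted p 6.96e-07), and Pecam1 by 0.39, 0.38 and 0.48. Among 9 regulators of the exit from the naive state, 1 was called higher and 0 lower in Trim71KO and 2 and 1 in Trim71KO_empty, beside 16.9% and 15.6%, and 14.4% and 13.4%, of all genes. Fnip1, a partner of folliculin, rose by 0.43 (SE 0.07) and 0.46 (SE 0.09), and the ETS factor gene Etv4 fell by 0.81 in T6B_WT, 0.78 in the libraries labelled Ago2KO_empty and 0.47 in Trim71KO_empty. In Ago2KO 3 were called higher and 1 lower, in T6B_WT 0 and 2, and in the libraries labelled Ago2KO_empty 2 and 2.

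**Figure D4:**
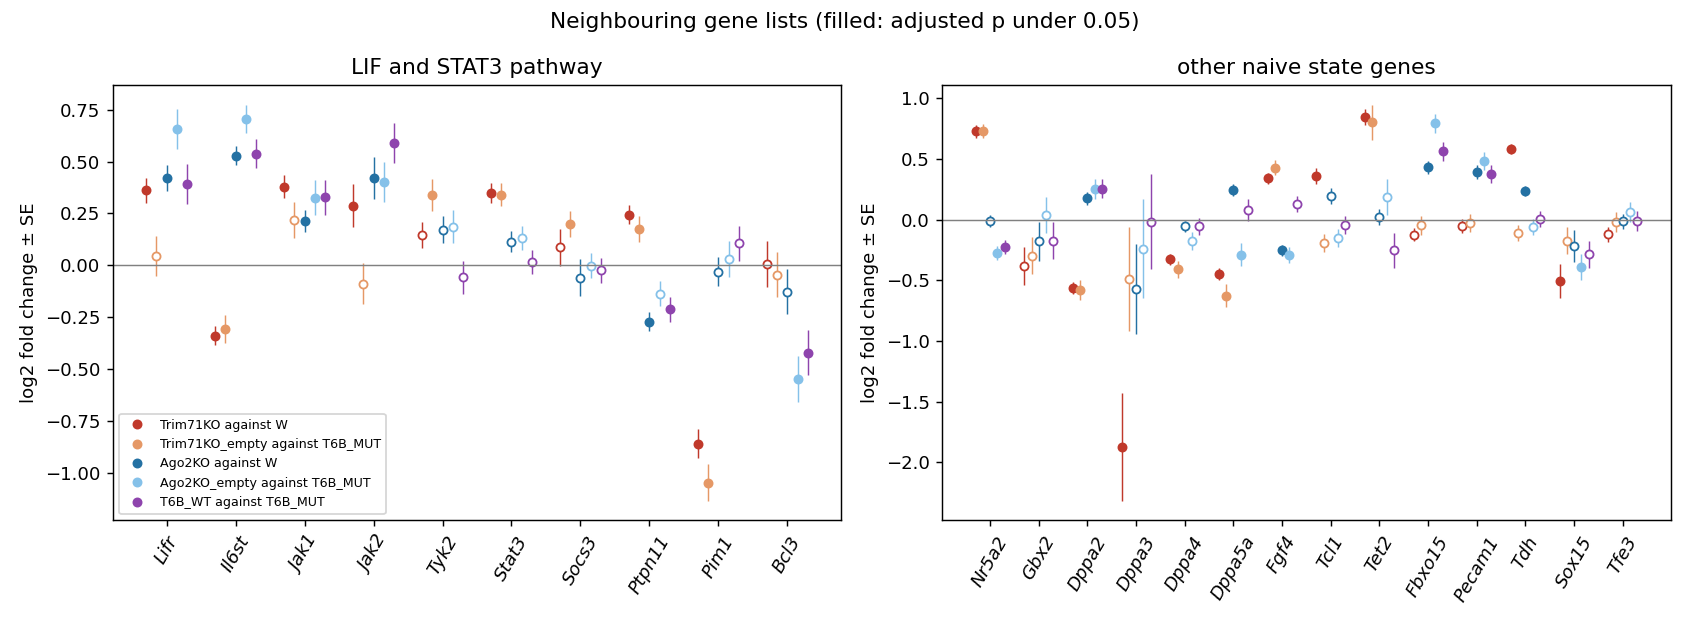
Log2 fold change (y axis, bars are ± 1 SE from edgeR) of the LIF and STAT3 pathway genes (left) and of other naive state genes (right) in 5 comparisons with a control (colours); filled points have an adjusted p under 0.05. Il6st is below 0 for Trim71KO and Trim71KO_empty and above 0 in the other 3 comparisons, Pim1 is near −1 in the former, and Tet2 and Nr5a2 are above 0 in both of them.

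The members were also compared by their pattern over the 21 libraries, as Pearson's r of log2 CPM centred on the mean of each experiment. Libraries share depth and group, so these values are a description. Klf4 and Esrrb were the most alike pair of members (r = 0.92), and Klf2 and Nr0b1 the least (r = −0.42). Among 12583 genes, that most like Nanog was Ampd3 (r = 0.98), followed by 2610002M06Rik (0.97). Those most like Klf4 were Galnt2 (0.96) and Gm20388 (0.96), those most like Klf5 were Tet2 (0.96) and Mob1b (0.96), and those most like Esrrb were Gak (0.96) and Slc6a6 (0.95). Zfp42 was most like Zfp42-ps1 (0.98), a pseudogene copy of it whose reads could be split or shared with it, and then Eloa (0.98). Tfcp2l1 was most like Adam10 (0.97) and then Gm23497 (0.97), which is nested in Tfcp2l1 on its strand. Tbx3 was most like Zfp398 (0.91) and Nectin1 (0.91), Prdm14 most like Smad3 (0.93) and Cadm1 (0.92), and Nr0b1 most like Tnk2 (0.97). Klf2, whose pattern had the lowest best match, was most like the extracellular matrix genes Nid2 (0.90) and Col5a1 (0.89).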

How the data were processed

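The authors deposited 1 table with raw read counts and RPKM values for 21 libraries, per the file headers, with 22512 genes in rows. Per the submitters' processing notes, STAR 2.7.3a, bcl2fastq 2.17 and the build GRCm38 (mm10) were used, in roles that are not given. Libraries were stranded total RNA per the labels' protocols, while whether counting used strand is not given in the sources used here. The series' text calls the replicates biological.

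Deposited counts were tested with edgeR 4.0.16 in R 4.3.3 (TMM, filterByExpr with a minimum count of 10, robust quasi-likelihood fit of all groups of an experiment, Benjamini-Hochberg adjustment over all genes tested, calls at an adjusted p under 0.05). Differences between experiments used 1 fit of all 21 libraries. Levels in CPM use TMM over all 21 libraries. Deposited RPKM values served only to order genes. Replicate pairs differed by 3.74 to 86.4 in chi-square per degree of freedom, so that each library counted as 1 replicate. The code was tested on simulated data. Alternatives were DESeq2 1.42.0 as test or for size factors, other filters, the 2 groups alone, TMM without chromosome 8, a replicate block and leaving out each library.

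Members and lists were chosen with earlier results of these data known, and the microRNAs and motifs after the files were seen. Named genes are all members, the edited genes, the marker genes, from each list at most 2 called genes that rose most and 2 that fell most, and the 2 genes most like each member at a mean log2 CPM of 2 or more, of which 1 is not reported here. Lin28a, Lifr, Jak2, Stat3, Pecam1, Dppa5a and Nr5a2 are named in more comparisons than that rule gives and were so chosen after their values were seen. Socs3 and Bcl3 are named outside that rule and were also chosen after their values were seen. Coordinates and UTRs are from GENCODE M21, in which 22480 IDs were found, and promoters and microRNAs from RefSeq.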

Additional observations from a re-analysis of the deposited data

Results flagged for a closer look

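For Esrrb, the difference between the Trim71-edited line and its control was called different between the experiments. The rise was smaller in Experiment 2 by 0.28 on the log2 scale (difference −0.28, SE 0.09, adjusted p 0.0354, edgeR quasi-likelihood). This was 1 of 10 members, where 10.1% of all genes were called, and the call was lost with a replicate block (adjusted p 0.0620) and without any 1 of 13 of the 21 libraries. The W libraries were at 385, 430.2 and 431 CPM of Esrrb and the T6B_MUT libraries at 546, 531 and 529, and plasmid and genotype differ together in Experiment 2, so that their parts cannot be told apart.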

How the results depend on the processing

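The members called in Trim71KO against W numbered 8 or 9 in all alternatives. For the libraries labelled Ago2KO_empty against T6B_MUT the number ran from 2 to 7 with 1 library left out, and for Trim71KO_empty against the libraries labelled Ago2KO_empty it was 4 with the 2 groups alone. For the difference of the Trim71 effect it was 2 with DESeq2, 0 with a replicate block and 0 to 1 with 1 library left out, and for that of the Ago2 effect 0 to 1. The cause of these changes was not tested, and in the other comparisons the number stayed within 1.5 times the reported one. Of the members' own fold changes, 43 lost a call, 15 gained one and 19 changed sign with 1 library left out, and with other settings 5 lost and 11 gained one. No value that changed sign was called. The ranges that follow for these members are over all alternatives. In Ago2KO against W, Klf4 ran from −0.12 to 0.0098 and Zfp42 from −0.027 to 0.049. In T6B_WT against T6B_MUT, Klf4 ran from −0.0086 to 0.046. In the libraries labelled Ago2KO_empty against T6B_MUT, Esrrb ran from −0.035 to 0.063, Klf4 from −0.019 to 0.085 and Zfp42 from −0.032 to 0.085. In Trim71KO_empty against the libraries labelled Ago2KO_empty, Tbx3 ran from −0.019 to 0.38 and Tfcp2l1 from −0.15 to 0.26. In the differences between experiments, Klf5 ran from −0.054 to 0.024 (Trim71), and Tfcp2l1 from −0.15 to 0.25 and Zfp42 from −0.050 to 0.077 (Ago2). Where 1 library was left out of a group of 3, the spread was pooled over all groups of the fit. Whether replicate numbers pair the libraries cannot be settled with 3 per group. Same-numbered libraries correlated at −0.21 to 0.22 in Experiment 1 and −0.17 to 0.17 in Experiment 2, with 4 of 9 and 3 of 18 over 0.1. Libraries of different number correlated at −0.26 to 0.19 and −0.16 to 0.23, with 5 of 18 and 3 of 36 over 0.1. The replicate block (0 members called for the difference of the Trim71 effect) otherwise ended the call of Klf2 in Trim71KO_empty and added that of Nr0b1 in Trim71KO.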
